A study of Homo sapiens with 2 samples.

Results

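The peaks described here are regions of open chromatin in CAMA-1 cells that were called in 1 of 2 replicate libraries and shared no base with any peak of the other library. They were chosen by overlap alone, on chromosomes 1 to 22, from the peak lists of both replicates, so their existence is the outcome of the selection and not a finding. Replicate 1 held 23752 such peaks among 239533 autosomal peaks, a share of 9.92% (95% Wilson interval 9.80 to 10.0). Replicate 2 held 38649 among 253056, a share of 15.3% (15.1 to 15.4). In all, 62401 of 492589 autosomal peaks were called in 1 replicate only, and the mean share over the replicates was 12.6% ± 3.79 (SD, n = 2).

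CAMA-1 is an established luminal breast cancer cell line of epithelial origin. The study grew it in serum-containing medium, describes its CAMA-1 model as a long-term passage and names no treatment of the cells used for ATAC-seq. Both biological replicates were ATAC-seq libraries from 50000 cells, and they form a single group with no second condition. The lists give no read totals, and the study's supplement names replicate 2 as the more deeply sequenced library. The background that MACS2 used was 3.35 stacked reads in replicate 1 and 3.52 in replicate 2. The part of this difference in depth in the shares called once was not tested. The label was checked at transcription start sites (TSSs), where all 12 luminal epithelial markers examined, among them ESR1, GATA3 and FOXA1, had a peak within 1 kb in both replicates, with heights of 135 (ESR1, replicate 1) to 1046 stacked reads (ELF3, replicate 2). The blood markers PTPRC, CD3E, CD79A and SPI1 had no peak, and CD14 had a peak in both. Of the stromal and endothelial markers, 5 of 6 and all 3 basal markers also had a peak in both replicates. None of these markers had its TSS peaks in 1 replicate only.

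ATAC-seq relies on the Tn5 transposase, which inserts sequencing adapters where DNA is not wrapped in nucleosomes, so that promoters, enhancers and insulators appear as piles of reads. A peak caller such as MACS2 compares the height of each pile with a background and keeps those that pass a significance threshold. A site whose height lies near that threshold can pass in one library and miss in the next, and the deposited lists hold no height for a library in which no peak was called, so the absence of a peak cannot be read as closed chromatin.

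The strongest of these peaks are shown as the extremes of the set, well above its typical height. Each sequence below is the central 200 bases of 1 peak, read 5′ to 3′ from the plus strand of hg38 and named by the nearest protein-coding TSS, with capitals at matches to the motifs examined further on. The first 3 were called in replicate 1 only, at chr6:17410414-17410613, chr1:161388681-161388880 and chr1:149843544-149843743. The other 4 were called in replicate 2 only, at chr13:23741974-23742173, chr5:148372941-148373140, chr17:69466584-69466783 and chr10:79511986-79512185. CAP2, CFAP126, MIPEP and FBXO38 mark the 2 strongest peaks of each replicate. H2AC18 and EIF5AL1 mark the strongest peak of each replicate at a gene without any TSS peak found in both, and the MAP2K6 peak was added, after its values were seen, because it holds the grainyhead motif.
CAP2: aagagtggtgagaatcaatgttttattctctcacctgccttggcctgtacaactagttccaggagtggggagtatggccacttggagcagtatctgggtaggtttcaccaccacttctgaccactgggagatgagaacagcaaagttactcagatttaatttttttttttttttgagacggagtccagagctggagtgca
CFAP126: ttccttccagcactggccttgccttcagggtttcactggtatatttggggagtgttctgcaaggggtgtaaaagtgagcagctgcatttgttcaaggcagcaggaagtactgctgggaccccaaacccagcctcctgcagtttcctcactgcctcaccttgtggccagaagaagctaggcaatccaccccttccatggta
H2AC18: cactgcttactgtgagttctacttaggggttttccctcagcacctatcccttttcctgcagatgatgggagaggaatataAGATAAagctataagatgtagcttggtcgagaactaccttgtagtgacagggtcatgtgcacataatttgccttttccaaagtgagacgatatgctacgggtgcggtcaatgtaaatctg
MIPEP: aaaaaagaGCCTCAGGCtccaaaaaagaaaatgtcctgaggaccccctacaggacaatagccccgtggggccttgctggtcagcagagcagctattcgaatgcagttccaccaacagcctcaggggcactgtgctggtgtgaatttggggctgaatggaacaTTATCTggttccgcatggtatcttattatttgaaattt
FBXO38: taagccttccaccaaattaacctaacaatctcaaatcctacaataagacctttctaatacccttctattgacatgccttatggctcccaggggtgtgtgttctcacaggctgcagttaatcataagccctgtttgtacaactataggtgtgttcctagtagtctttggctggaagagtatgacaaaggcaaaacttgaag
MAP2K6: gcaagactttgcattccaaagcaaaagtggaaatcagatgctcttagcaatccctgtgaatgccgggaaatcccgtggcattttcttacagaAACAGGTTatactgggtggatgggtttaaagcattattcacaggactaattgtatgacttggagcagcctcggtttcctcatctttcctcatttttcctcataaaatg
EIF5AL1: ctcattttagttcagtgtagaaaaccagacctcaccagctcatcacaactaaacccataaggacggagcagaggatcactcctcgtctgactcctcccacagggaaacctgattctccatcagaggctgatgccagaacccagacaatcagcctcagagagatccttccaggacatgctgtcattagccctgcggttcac
Of these windows, 3 hold a match to a motif examined here: H2AC18 has 1 GATA match, MIPEP has 1 GATA and 1 AP-2 match, and MAP2K6 has 1 grainyhead match. The remaining 4 hold none.

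The strongest peak called in replicate 1 only lay in the first intron of CAP2, which encodes an actin-regulating, cyclase-associated protein, at chr6:17410389-17410639. Its height was 40 stacked reads (exact 95% Poisson interval 28.6 to 54.5, counting error only), a 9.43-fold enrichment over background, and the nearest peak of replicate 2 was 880 bp away. The next 4 in replicate 1 each reached a height of 38. They lay 20905 bp from the TSS of CFAP126 between genes, in the first intron of TFDP2 (a dimerisation partner of E2F factors), 785 bp from the TSS of the unconventional myosin gene MYO1H, and in a noncoding exon 12897 bp from the TSS of DNAL1, an axonemal dynein light chain gene. Of these 5 peaks, the TFDP2 peak held 1 match to the forkhead motif and 1 to the GC box, the MYO1H peak held 1 to AP-2, and the other 3 held none.

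In replicate 2 the strongest such peak was in the first intron of MIPEP, a mitochondrial peptidase gene, at chr13:23741961-23742187. It had 47 stacked reads at its top (34.5 to 62.5), or 10.6 times the background, with the nearest replicate 1 peak 1082 bp away. A peak 10894 bp from the TSS of FBXO38, an F-box gene, and a peak in the first intron of MAP2K6, which encodes a kinase that activates p38, both reached 45 (32.8 to 60.2). Peaks in a later intron of BANK1, a B cell scaffold gene, and 2559 bp from a TSS of TMEM131L both reached 44. All 10 of these peaks lay inside the range of shared heights: 50.0% of the shared peaks of replicate 1 and 47.0% of those of replicate 2 were higher than the strongest peak called once.

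Height, width and significance were all part of what decided whether a peak was called, so they describe the selection and were not tested. The median height was 18 stacked reads in both replicates, with quartiles of 16 and 20 in replicate 1 and of 16 and 21 in replicate 2, against medians of 41 and 44 for shared peaks. The lowest height was 11 in every set. Median widths were 175 bp and 180 bp, against 318 bp and 333 bp, and the shortest width was 150 bp throughout. A −log10 q of at least 10 was reached by 15.1% of the peaks called in replicate 1 only and 15.9% of those called in replicate 2 only, against 81.4% and 82.2% of shared peaks. Because they were narrow, the peaks called once covered 4.61 Mb in replicate 1 and 7.72 Mb in replicate 2, which is 4.38% and 6.94% of the bases under peaks.

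The share of peaks called once fell with height in both libraries. At a height of 15, 44.7% of replicate 1 peaks (43.4 to 46.0) and 59.0% of replicate 2 peaks (57.7 to 60.2) were called once. At a height of 20 the shares were 24.9% and 39.0%, at 25 they were 7.12% and 15.6%, and at 30 they were 1.11% and 4.83%. Replicate 2 stood above replicate 1 at each of these heights. The intervals cover counting error within each library and do not measure the spread between libraries. Heights were not scaled for the backgrounds of 3.35 and 3.52 stacked reads.

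**Figure D1:**
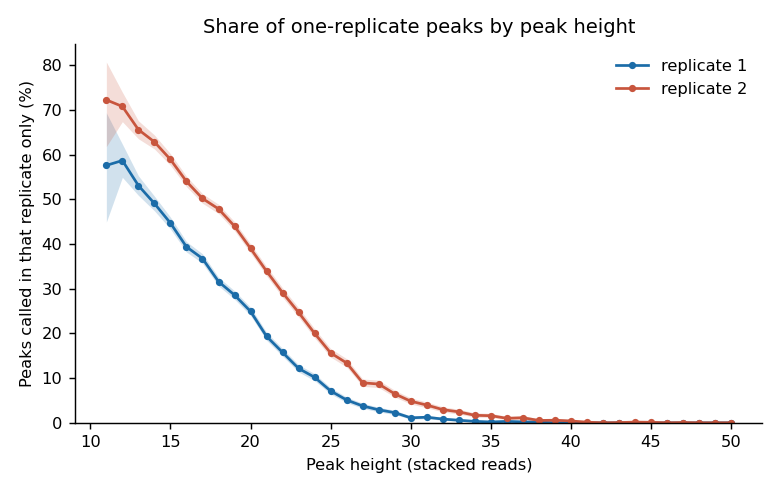
Share of autosomal peaks called in that replicate only (%) against peak height (stacked reads); lines are the 2 replicates and bands are 95% Wilson intervals. The share fell from 57.6% at a height of 11 to 1.11% at 30 in replicate 1 and from 72.3% to 4.83% in replicate 2.

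The overlap threshold of 1 bp placed few peaks at its edge. Only 47 peaks of replicate 1 and 34 of replicate 2 lay within 10 bp of a peak of the other list, with median heights of 16 and 15.5. Just inside the shared set, 679 and 604 peaks overlapped a peak of the other list by at most 10% of the wider peak, with median heights of 17 and 18. A peak of the other replicate lay over 100 and up to 500 bp away for 26.3% of the peaks called in replicate 1 only and 20.9% of those called in replicate 2 only. Gaps over 10000 bp were found for 9.31% and 15.6%. The median GC content was lower the wider the gap, from 53.3% at gaps up to 100 bp to 47.3% at gaps over 10000 bp in replicate 1, and from 52.8% to 45.03% in replicate 2.

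The remaining features were not used by the selection, apart from distances to other peaks. Distances to shared peaks and to the other replicate's peaks called once rest on labels that the overlap rule set, which in part fixes them. Each feature was compared with the shared peaks of the same replicate, weighted so that their widths were distributed like those of the peaks called once. With 2 replicates an exact sign-flip test of a difference cannot give a p below 0.5, and peaks are not replicates, so values are given per replicate without p-values. Wilson intervals cover counting error only, and neighbouring peaks are not independent. Width matching left a difference in height, since the width-matched shared peaks had median heights of 20 and 21, and values matched on both width and height are given beside those matched on width for the main features.

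Base composition differed between the replicates. The peaks called in replicate 1 only had a median GC content of 50.9% (quartiles 45.7 and 56.4), against 48.5% in width-matched shared peaks. Those called in replicate 2 only had a median of 48.9% (43.3 and 54.7), against 49.0%. The mean difference from width-matched shared peaks was 2.14 percentage points in replicate 1 and -0.107 in replicate 2, a mean over replicates of 1.02 ± 1.59 (SD, n = 2), so the spread between replicates exceeded the mean. When height was matched as well, the differences were 1.04 and -1.25 and lay on opposite sides of 0. AT-rich peaks showed the same split, since a GC content under 40% was found in 7.37% of the peaks called in replicate 1 only (7.04 to 7.71) against 12.8% of width-matched shared peaks, but in 13.3% of those called in replicate 2 only (12.9 to 13.6) against 11.7%. GC contents of 60% or more were above the width-matched share in both replicates, at 13.1% against 9.28% and 10.6% against 9.54%, but in replicate 2 the value was below the share of 12.2% obtained when height was matched too.

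Sorted by GC content, the share of all peaks that was called once differed most between the replicates at AT-rich sites. In replicate 2 it was 24.5% (23.3 to 25.7) below 35% GC and 17.6% at 35 to 40%, lay between 14.5% and 15.8% from 40 to 65% GC, and was 10.1% at 65% or more. In replicate 1 it was 7.80% (7.00 to 8.68) and 7.36% in the first bins, rose from 8.01% at 40 to 45% to 11.9% at 55 to 60%, and was 7.83% at 65% or more. Over all heights, both replicates thus had low shares in the most GC-rich peaks. Both were higher at 50 to 55% than at 45 to 50% (11.7% against 9.40%, and 15.8% against 14.5%). Among peaks of similar height (15 to 20 stacked reads), the share rose from 22.9% below 35% GC to 36.3% at 50 to 55% GC in replicate 1, and fell from 63.1% to 46.5% in replicate 2. The direction was thus opposite in the replicates among peaks of similar height. At 65% GC or more the shares at these heights were 34.3% in replicate 1 and 43.0% in replicate 2. The low share of the most GC-rich peaks therefore did not hold in replicate 1 among peaks of similar height.

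The peaks found in both replicates, which the selection left out, showed how the libraries differed at the same sites. Over 200067 shared peaks that paired one to one, the median log2 ratio of the height in replicate 2 to that in replicate 1 was 0.09 (quartiles -0.09 and 0.28). It was 0.15 below 35% GC, 0.13 at 40 to 45% and 0.06 at 55 to 60%, and 0.10 at 65% or more. Among the pairs with a mean height of at most 40 the medians were 0.14 below 35% GC and 0.06 at 55 to 60%. The replicate 2 library was thus relatively higher at AT-rich sites, where it also had more peaks of its own, and the part of this difference between libraries in the composition of the peaks called once was not tested.

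**Figure D2:**
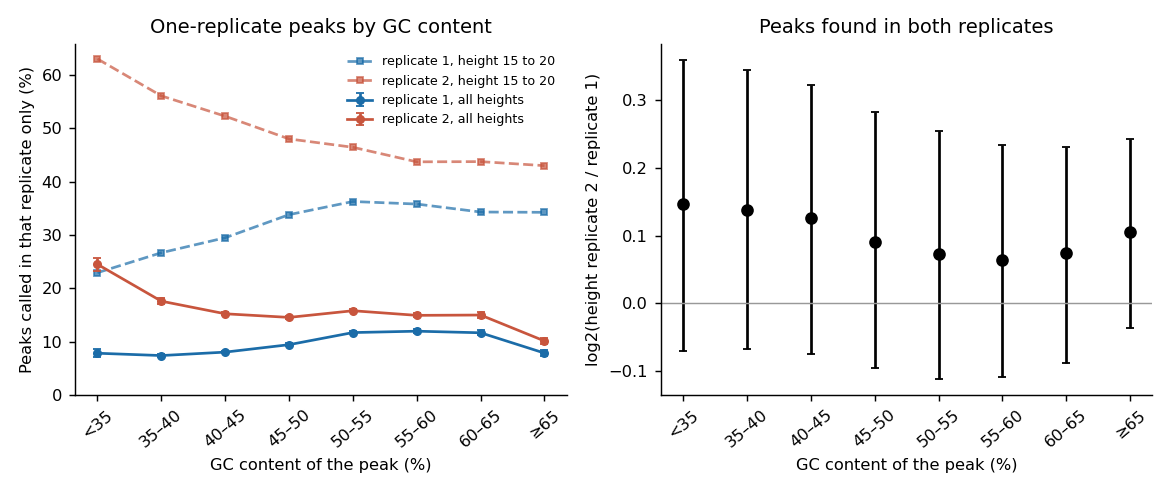
Left, share of peaks called in that replicate only (%) by GC content of the peak (%), for all heights with 95% Wilson intervals (solid) and for heights of 15 to 20 stacked reads (dashed); below 35% GC it was 7.80% in replicate 1 and 24.5% in replicate 2. Right, median and quartiles of the log2 height ratio (replicate 2 over replicate 1) of the one-to-one shared pairs, highest below 35% GC (0.15) and lowest at 55 to 60% (0.06).

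By genomic class, the peaks called once were mostly intronic or intergenic, as the shared peaks of the same width were. In replicate 1, 24.1% lay in first introns, 19.6% in later introns and 27.1% between genes. The replicate 2 shares were 24.7%, 22.03% and 29.0%. Within 1 kb of a protein-coding TSS lay 10.9% of the peaks called in replicate 1 only (10.5 to 11.3), against 8.37% of width-matched shared peaks. In replicate 2 the share was 8.20% (7.94 to 8.48) against 8.74%. At 1 to 3 kb the shares were 13.2% against 10.7% and 10.9% against 11.3%. The promoter difference averaged 0.995 percentage points ± 2.17 (SD, n = 2), and its sign differed between the replicates.

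Intergenic shares were 27.1% against 29.5% in replicate 1 and 29.0% against 29.1% in replicate 2, and with height matched the comparison shares were 28.2% and 27.9%, which turned the sign in replicate 2. Matching on height as well narrowed the promoter difference of replicate 1 to 1.06 points and widened that of replicate 2 to -1.92. Exonic classes were small: coding exons held 1.03% and 1.04%, 3′ UTRs 1.71% and 1.70%, noncoding exons 2.35% and 2.39%, and 5′ UTRs beyond 3 kb of a TSS 0.0547% and 0.0414%. Exons and UTRs together held 5.14% of the peaks called in replicate 1 only against 4.63% of width-matched shared peaks, and 5.16% against 4.76% in replicate 2. The exonic share was above the width-matched value in both replicates, and matching on height as well gave comparison shares of 4.79% and 5.00%.

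**Figure D3:**
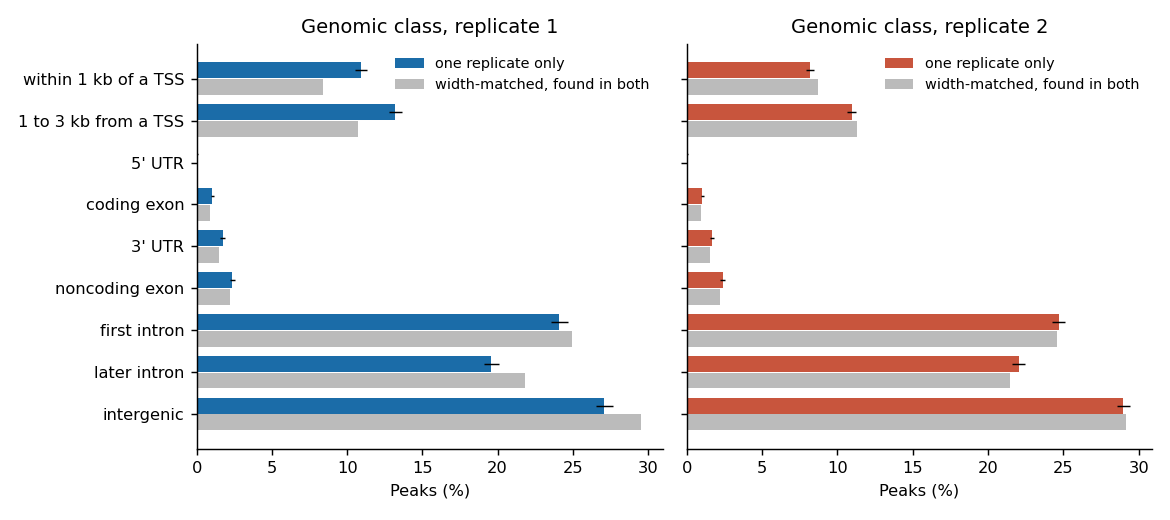
Share of peaks (%) in 9 genomic classes for peaks called in 1 replicate only (coloured, with 95% Wilson intervals) and for width-matched peaks found in both replicates (grey). Within 1 kb of a TSS the coloured bar is longer in replicate 1 (10.9% against 8.37%) and shorter in replicate 2 (8.20% against 8.74%).

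Distances gave the same contrast. The median distance to the nearest protein-coding TSS was 12386.5 bp for the peaks called in replicate 1 only and 18055 bp for width-matched shared peaks, a ratio of 0.686. The replicate 2 medians were 17456 bp and 16584 bp, a ratio of 1.05, and the mean ratio was 0.869 ± 0.259 (SD, n = 2). More than 100 kb from any protein-coding TSS lay 13.9% of the peaks called in replicate 1 only against 19.1%, and 19.1% of those called in replicate 2 only against 17.6%. Matched on height too, the ratios of the median TSS distances were 0.823 and 1.27.

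Shared peaks were close to most of the peaks called once. The nearest shared peak of the same list lay at a median of 1464 bp from the peaks called in replicate 1 only, against 2101 bp between width-matched shared peaks and their nearest other shared peak, a ratio of 0.697. In replicate 2 the medians were 2068 bp and 1973 bp, a ratio of 1.05, and the mean ratio was 0.872 ± 0.248 (SD, n = 2). A shared peak within 1 kb was found for 40.9% (40.2 to 41.5) against 34.0% in replicate 1 and for 33.7% (33.3 to 34.2) against 35.2% in replicate 2. With height matched, the replicate 1 share differed by 1.05 points and the replicate 2 share by -7.43 points. No shared peak lay within 50 kb of 0.926% of the peaks called in replicate 1 only, against 1.65% of width-matched shared peaks, and of 1.76% of those called in replicate 2 only, against 1.51%.

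Peaks called once in the 2 replicates also lay near each other without touching. A replicate 2-only peak lay within 1 kb of 8.79% of the replicate 1-only peaks (8.44 to 9.16), against 6.63% of width-matched shared peaks of replicate 1. In the other direction the shares were 5.44% (5.22 to 5.67) and 4.91%. Within 10 kb the shares were 44.8% against 37.7% in replicate 1 and 29.2% against 29.2% in replicate 2, so in replicate 2 the difference seen at 1 kb was no longer present.

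**Figure D4:**
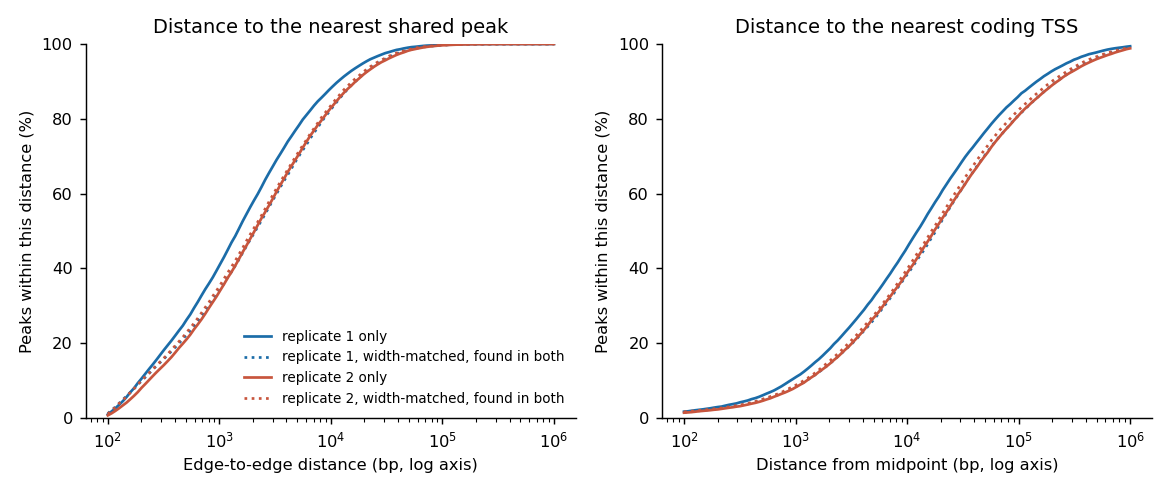
Cumulative share of peaks (%) against the distance to the nearest other shared peak (left) and to the nearest protein-coding TSS (right), both in bp on a log axis; solid lines are peaks called in 1 replicate only and dotted lines are width-matched shared peaks of the same replicate. The replicate 1-only line lies to the left of the others in both panels (medians of 1464 bp and 12386.5 bp), and the dotted lines of the replicates nearly coincide.

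Transcription factor motifs were counted as exact matches on both strands within 200 bp around each midpoint. A match is a description of the letters and does not show binding. CTCF, the insulator protein, had its motif in 0.686% of the peaks called in replicate 1 only (0.589 to 0.800) and 0.580% of those called in replicate 2 only (0.509 to 0.660), against 1.56% and 1.66% of width-matched shared peaks and 0.0715% of all 200 bp windows of the autosomes. When shared peaks were matched on height as well, their shares were 0.676% and 0.816%, so that the CTCF share of replicate 1 was no longer lower. The motif is therefore less frequent than in width-matched shared peaks in both replicates, and less frequent than in height-matched ones in replicate 2 alone.

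The GATA motif (AGATAA), read by GATA3 in luminal cells, was found in 7.44% of the peaks called in replicate 1 only (7.11 to 7.78) against 9.92% of width-matched shared peaks. In replicate 2 it was found in 11.02% (10.7 to 11.3) against 9.05%. The grainyhead motif (AACCNGTT), read by the epithelial factor GRHL2, was found in 1.60% (1.45 to 1.77) against 2.84% in replicate 1 and in 2.71% (2.55 to 2.87) against 2.48% in replicate 2. Among all 200 bp windows of the autosomes, 14.4% held the GATA motif and 1.40% the grainyhead motif. Both motifs were thus scarcer than in the comparison peaks in replicate 1 and more frequent in replicate 2.

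Matching on GC content in place of height kept these directions, with comparison shares of 8.30% and 9.36% for GATA and of 2.54% and 2.52% for grainyhead. In the shared pairs, which hold no peak called once, the median log2 height ratio of replicate 2 to replicate 1 was 0.13 at 18787 pairs with a GATA match and 0.17 at 5672 pairs with a grainyhead match, against 0.09 over all pairs and 0.03 at 4968 pairs with a CTCF match. The part of this difference between libraries in the motif shares was not tested.

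AP-1 (TGANTCA), the motif of FOS and JUN factors, was found in 10.4% of the peaks called in replicate 1 only (9.99 to 10.8) against 10.5% of width-matched shared peaks, but in 8.48% of those called in replicate 2 only (8.20 to 8.76) against 11.02%. Its share was 6.18% of all windows, and the median log2 ratio of the shared pairs with a match was 0.06. Matched on height as well, the comparison shares were 9.87% and 10.6%, so the share of replicate 1 lay above and that of replicate 2 below. The GC box (GGGCGG), read by SP and KLF factors, was found in 6.14% against 5.12% in replicate 1 and 4.80% against 5.25% in replicate 2, with 2.88% of all windows. Matched on GC content, the comparison shares were 6.34% and 5.35%, so the higher value of replicate 1 did not hold against peaks of the same base composition.

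The forkhead motif (TGTTTAC), read by FOXA1, was found in 4.55% against 5.88% in replicate 1 and in 5.15% against 5.40% in replicate 2, with 3.08% of all windows. Height-matched shared peaks held it in 5.32% and 5.03%, so that the sign in replicate 2 turned. The AP-2 motif (GCCNNNGGC) was found in 10.2% against 9.82% and in 9.35% against 9.96%, with 3.01% of all windows, and it overlaps in letters with GC-rich motifs. Its comparison shares were 10.5% and 10.9% when height was matched and 11.3% and 9.93% when GC content was matched, so the higher value of replicate 1 did not hold under either. The ETS motif (CCGGAAG) was found in 0.918% against 0.876% and in 0.756% against 0.960%, with 0.469% of all windows, and against GC-matched shares of 1.04% and 0.956% both were lower. The estrogen response element, read by the estrogen receptor, was found in only 6 peaks called in replicate 1 only and 17 called in replicate 2 only, or 0.0253% (0.0116 to 0.0551) and 0.0440% (0.0275 to 0.0704), against 0.0273% and 0.0415% of width-matched shared peaks. A difference for this element was not detectable at these numbers.

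Short reads can be placed at 1 site only where the sequence is unique. The central 50 bases of a peak occurred again elsewhere in hg38, on either strand, in 1.48% of the peaks called in replicate 1 only (1.33 to 1.64) against 1.12% of width-matched shared peaks. In replicate 2 the shares were 1.14% (1.04 to 1.26) and 1.18%. Repeated sequence of this kind therefore touched few of the peaks called once in either library.

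Across chromosomes, the share of peaks called in replicate 1 only ranged from 7.41% on chromosome 21 (6.47 to 8.49) and 7.76% on chromosome 18 (6.98 to 8.61) to 10.99% on chromosome 8 (10.5 to 11.5) and 11.5% on chromosome 5 (11.01 to 11.97). In replicate 2 it ranged from 12.97% on chromosome 11 (12.4 to 13.6) and 13.5% on chromosome 19 (12.8 to 14.2) to 16.6% on chromosome 8 (16.03 to 17.3) and 18.2% on chromosome 13 (17.3 to 19.2). Since chromosomes differ in the widths of their peaks, the share that the width distribution of each chromosome would give was computed as well. It was 9.68% for chromosome 21, 10.5% for chromosome 18, 10.2% for chromosome 8 and 10.3% for chromosome 5 in replicate 1. For replicate 2 it was 14.3% for chromosome 11, 12.9% for chromosome 19, 15.7% for chromosome 8 and 16.8% for chromosome 13. Chromosome 19 was therefore low in replicate 2 but above its width-expected share (1.04 times), and chromosome 13 was 1.08 times its own. The highest share was 1.55 times the lowest in replicate 1 and 1.41 times in replicate 2. Chromosome 8 was above the autosomal share in both replicates, and chromosome 13 was below it in replicate 1, at 8.86% (8.18 to 9.59).

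The replicates did not rank the chromosomes alike. Over the 22 autosomes, Pearson's r between the shares was -0.08 and Spearman's rho 0.01, as a description over chromosomes that share the same libraries. The ratio of the share in replicate 2 to that in replicate 1 was highest on chromosomes 18 (2.08), 21 (2.08) and 13 (2.06) and lowest on chromosome 11 (1.25). The same chromosomes had the highest and the lowest median log2 height ratios of the shared pairs, 0.15 on chromosome 18, 0.14 on chromosome 21, 0.13 on chromosome 13 and 0.07 on chromosome 11. Over all 22, the share ratio and the shared-pair ratio had an r of 0.93 and a rho of 0.84, both sets coming from the same libraries with the same depths, base composition and copy numbers. Copy number was not analysed here, and its part in these shares was not tested.

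**Figure D5:**
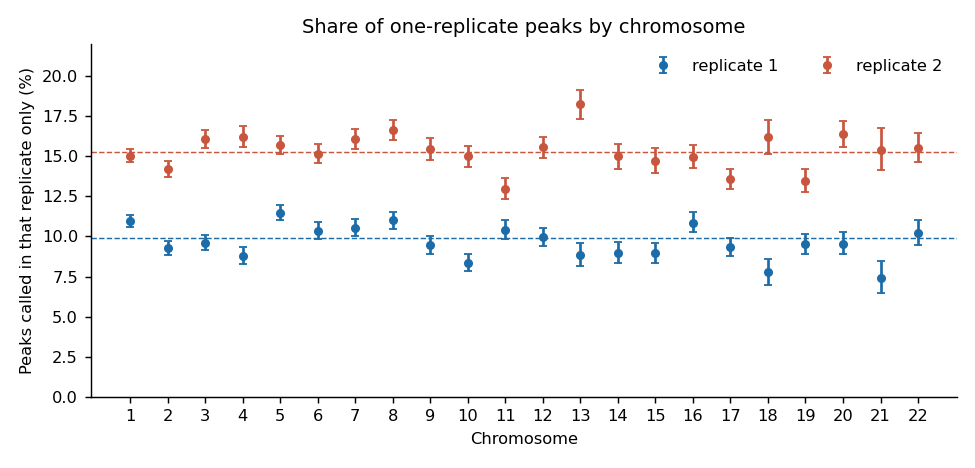
Share of peaks called in that replicate only (%) on each autosome, with 95% Wilson intervals; dashed lines are the autosomal shares of 9.92% (replicate 1) and 15.3% (replicate 2). Chromosome 13 is the highest point of replicate 2 (18.2%) while chromosomes 18 and 21 are the lowest of replicate 1 (7.76% and 7.41%).

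At a scale of 10 Mb, 279 windows held at least 200 peaks in each list. The highest mean shares were found between positions 130000001 and 140000000 of chromosome 8, with 14.7% in replicate 1 (12.6 to 17.0) and 19.96% in replicate 2 (17.7 to 22.4), in the last window of chromosome 13, with 13.9% and 19.7%, and in the last window of chromosome 5, with 15.7% and 17.8%. The lowest were the first 10 Mb of chromosome 17, with 5.90% (4.68 to 7.41) and 11.5% (9.84 to 13.4), positions 40000001 to 50000000 of chromosome 1, with 6.83% and 10.8%, and the next 10 Mb of chromosome 17, with 6.09% and 11.6%. These windows were picked for their mean over both replicates, and that choice in part fixed on which side of the autosomal shares both libraries lie. Over all 279 windows the shares of the replicates had an r of -0.01, and against the median GC content of the shared pairs the r was 0.44 for replicate 1 and -0.39 for replicate 2, again as descriptions within shared libraries.

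Few genes had TSS peaks in 1 replicate only. Of 19111 autosomal protein-coding genes, 15394 had a shared peak within 1 kb of a TSS, 139 had only peaks called in replicate 1 alone and 233 only peaks called in replicate 2 alone. The 372 genes with TSS peaks of 1 replicate only made up 1.95% of all genes. A further 20 genes had peaks of both replicates that did not touch each other, and 3325 had none. The strongest such peaks in replicate 1 had heights of 32 at H2AC18 (a histone H2A gene) and CGREF1, 30 at the mucin gene MUC20, and 29 at the zinc finger gene ZNF215 and at NFAM1, an immune receptor gene.

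In replicate 2 the strongest were 30 at EIF5AL1, a relative of the translation factor gene EIF5A, 29 at the proton-sensing receptor gene GPR4, and 28 at the myosin gene MYH15, the Ras GTPase-activating gene RASA4 and the olfactory receptor gene OR4K5. H2AC18 and RASA4 have near-identical copies in the genome, though the central 50 bases of their peaks occurred nowhere else. The GPR4 peak, with a GC content of 73.9%, covered the TSS and held 4 GC box matches. The nearest edge of the H2AC18 peak lay 739 bp from the TSS, outside the gene.

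Gene families were set beside the 1.95% of all genes. None of 79 ribosomal protein genes and none of 38 proteasome genes, both expressed in every cell, had its TSS peaks in 1 replicate only, and 78 and 36 of them had a shared peak. None of 42 collagen genes and none of 56 cytochrome P450 genes did. Among 496 zinc finger genes there were 6, or 1.21% (0.556 to 2.61), with ZNF683, ZNF215 and ZNF426 in replicate 1 and ZNF814, ZNF132 and ZNF280A in replicate 2. Among 353 solute carrier genes there were 7, or 1.98% (0.964 to 4.04), all in replicate 2, with heights of 13 at the sodium-calcium exchanger gene SLC8A1 to 22 at the amino acid transporter gene SLC7A9.

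Of 73 histone genes, 1 (H2AC18) had its TSS peaks in 1 replicate only, or 1.37% (0.242 to 7.36). Of 63 protocadherin genes, which encode cell adhesion proteins best known from neurons, 5 had TSS peaks in 1 replicate only, or 7.94% (3.44 to 17.3). PCDHA6 and PCDHA8 had peaks of height 23 at their TSSs in replicate 2, PCDHGC4 one of 20 and PCDHGA3 one of 19, and PCDHGC5 had a peak of 14 in replicate 1. Of 94 keratin-associated protein genes 5 did, or 5.32% (2.29 to 11.9), of which 4 were in replicate 1, with heights of 15 to 20, and KRTAP5-2 in replicate 2 reached 21.

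Of 39 homeobox cluster genes HOXB3 (height 14) and HOXB4 (height 15) had TSS peaks in replicate 1 only, or 5.13% (1.42 to 16.9). Of 93 potassium channel genes KCNJ1 (height 16) and KCNJ15 (19) did in replicate 1, and KCNA3 (19) and KCNJ16 (16) in replicate 2, or 4.30% (1.69 to 10.5). Of 399 olfactory receptor genes 360 had no TSS peak, 32 a shared one and 7 a peak in replicate 2 only, or 1.75% (0.852 to 3.58), with heights of 14 at OR7G2 to 28 at OR4K5. Most of these intervals include 1.95%. The protocadherins and the keratin-associated proteins lie above it, on 5 genes each, and neighbouring genes of a cluster share their surroundings. These shares also count genes without any TSS peak. Among genes with any TSS peak, the share over all genes was 2.36%. It was 17.9% of 39 olfactory receptor genes, 23.8% of 21 keratin-associated protein genes and 9.62% of 52 protocadherin genes. For zinc finger genes it was 1.41%, for histones 1.82%, for solute carriers 2.40%, for potassium channels 5.63% and for homeobox cluster genes 8.70%. No intervals were computed for the shares among genes with any TSS peak. Those of the olfactory receptor, keratin-associated protein and protocadherin genes rest on 7, 5 and 5 genes.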

How the data were processed

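Per the labels and the submitters' processing notes, the reads of both CAMA-1 libraries were handled with Trim Galore 0.6.5, Bowtie2 2.3.5.1 and MACS2 2.2.6 on hg38, and each replicate had its own peak list. MACS2 settings and the handling of duplicate reads are not given in the sources used here. The peak lists hold no read totals; the study's supplement lists more sequences for replicate 2 than for replicate 1, and no value of it entered the calculations.

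The deposited columns were a score (10 times the −log10 q, cut to an integer), a fold enrichment, −log10 p-values and −log10 q-values. The authors' fold values were whole multiples of a single step (0.230 and 0.221, to within 8.13e-05 of a step), from which the height of each peak was recovered as fold / step − 1. No read counts were used.

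Overlap meant at least 1 bp. Shared peaks were weighted, without random draws, to the widths of the peaks called once (10 bp bins, open from 1500 bp; 30 bp bins where height or GC was matched as well; matching on height kept 23745 and 38634 of them). Classes followed the midpoint and GENCODE release 44, by the first match in the order TSS, exons, introns, intergenic; distances to TSSs ran from midpoints and to peaks from edge to edge. Named peaks were the 5 with the highest fold per replicate and the 5 strongest at genes without a shared TSS peak; windows were the 3 with the highest and lowest mean share. The peaks, gene lists and motifs were chosen with earlier results of these data known. The functions were tested on simulated data. Python 3.11.15, numpy 2.4.6, pandas 2.3.3, scipy 1.17.1 and matplotlib 3.10.9 were used. Other settings are described in the closing section.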

Additional observations from a re-analysis of the deposited data

How the results depend on the processing

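No paired analysis was possible because the design holds 1 group. Without either replicate in turn, the difference in GC content ranged from -0.107 to 2.14 percentage points, that in promoter share from -0.539 to 2.53, and the ratios of the median distances from 0.697 to 1.05 (nearest shared peak) and from 0.686 to 1.05 (nearest TSS), so the means over replicates rest on replicate 1. With a reciprocal overlap of 50%, the share called once was 18.8%, the promoter difference 3.26 points and the shared-peak distance ratio 0.610. When a peak within 500 bp counted as found again, which by construction removes peaks close to others, the GC difference was -0.000512 points, the promoter difference -2.51 points, and the distance ratios 2.08 (shared peak) and 1.15 (TSS). Matched on width and height, these were -0.102, -0.427, 1.15 and 1.04. Against all shared peaks without matching, the promoter difference was -4.11 points and the ratios 1.09 and 1.08. With 1 TSS per gene the promoter difference was -0.114 points. The cause of these changes was otherwise not tested.

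In replicate 1 alone the GC difference stayed above 0 under 7 of 7 alternatives and the TSS ratio below 1 under 8 of 8. The promoter difference turned below 0 under 2 of 9 (as low as -2.79) and the shared-peak ratio above 1 under 1 of 6 (1.64). In replicate 2 alone the GC difference stayed below 0 under 5 of 7, the promoter difference below 0 under 8 of 9, the shared-peak ratio above 1 under 4 of 6 and the TSS ratio above 1 under 7 of 8. A −log10 q of at least 10 moved no mean beyond the spread between replicates, nor did any alternative move the ratio of the highest to the lowest chromosome share, which was 1.48 ± 0.101 (SD, n = 2). That q cut applied to both lists before the overlap, so 15482 peaks in replicate 1 and 19564 in replicate 2 counted as called once. In the main selection only 3583 and 6158 of the peaks called once reached this q, and these were not compared separately. A comparison of repeat-masked bases was not run, since the reference used marks 0 bases as masked. The shared-pair ratios and the motif comparisons matched on height or GC were chosen after seeing the data. The lists hold no height where no peak was called, so a near miss cannot be told from a site without reads, and with 2 libraries differences of the cells and of library preparation cannot be told apart.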

Other observations

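The X chromosome was outside the selection. By the same overlap, 450 of its 6200 peaks were called in replicate 1 only, or 7.26% (6.64 to 7.93), and 983 of 6687 in replicate 2 only, or 14.7% (13.9 to 15.6). Both values lay below the autosomal shares, and that of replicate 1 was under the lowest autosome. The replicate 2 interval includes the autosomal share of 15.3%, and the replicate 1 interval overlaps that of chromosome 21 (6.47 to 8.49).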
